A study of Mus musculus with 23 samples.

Results

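The genes described here are 8 secreted factors and receptors through which bone marrow stroma keeps blood stem cells, lymphoid progenitors and macrophages. They are *Cxcl12*, *Kitl*, *Lepr*, *Csf1*, *Il34*, *Il7*, *Angpt1* and *Il6*, out of 21402 genes in the table of normalized read counts. They were chosen by name, with earlier results of these data known. All 8 were found and all 8 passed the filter on low values, which kept 15638 genes (10 or more normalized reads in 2 or more libraries).

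Blood stem cells sit in the marrow beside stromal cells that carry the leptin receptor, encoded by *Lepr*. These cells secrete the chemokine CXCL12, which holds stem cells in place through its receptor CXCR4, and stem cell factor, the product of *Kitl*, which acts through KIT. *Csf1* and *Il34* encode the ligands of the macrophage receptor CSF1R, and CSF1 is needed together with RANKL for osteoclasts to form. *Il7* drives early B and T lymphocytes, *Angpt1* encodes the ligand of the endothelial receptor TIE2, and *Il6* encodes a cytokine that signals through gp130 and STAT3.

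Total RNA of osteocyte-enriched bone chips was measured in 23 mice of C57BL/6J background, aged 5 months. The diaphyses of tibia and femur had been freed of marrow by flushing and of surface cells by serial digestion. The groups were KO females, WT females, KO males and WT males, each on a low-calcium diet (0.01% calcium) or a control diet (0.6% calcium) for 2 weeks. KO mice lack FNDC5, the precursor of irisin, in the whole body from conception, so the loss is not limited to any cell type of the chips. There were 3 mice per group and 1 library per mouse, except for KO females on the low-calcium diet, where there were 2. In bulk RNA of this kind, fewer cells of a type and less RNA per cell cannot be told apart.

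The libraries held 7217601 to 33352631 recovered reads. The lowest depth was in WT females on the low-calcium diet, and per the methods of the study the mice 16, 17 and 18 of that group mapped poorly. The paper names bacterial contamination as a possible reason, and states that unfiltered bacterial reads may raise some genes. It used the reads unfiltered and held that the data as a whole should not be much affected. The part of such reads in the values of this group was not tested. Fits without mice 16 and 17 keep mouse 18, so they do not remove this possibility. *Fndc5* itself was near the limit of detection, at 0 to 12.4 in 11 KO libraries and 0 to 17.8 in 12 WT libraries, and counts over the whole gene do not check an allele that lacks part of exon 3. The 2 KO females on the low-calcium diet had 1.75 and 12.4, and the 3 KO males on the control diet had 0. Osteocyte markers were present in all libraries, with a summed normalized read count of the 15 listed genes of 26126 to 98273. Markers of blood cells were also high, with 277912 to 707797 for 11 neutrophil genes and 66714 to 162423 for 9 erythroid genes, although the globin genes of that list were at or near 0. Hepatocyte markers summed to 5.61 to 322 in 20 libraries and stood apart in WT males on the control diet, at 25918 in mouse 24 against 3108 in mouse 7 and 2050 in mouse 25.

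*Cxcl12* was the most abundant of the 8 genes in every group. Levels between genes were compared per kilobase of exon, and on that scale *Cxcl12* averaged 3586 over the 23 libraries, *Lepr* 568, *Csf1* 358, *Kitl* 343, *Angpt1* 214, *Il6* 119, *Il34* 51.1 and *Il7* 21.6. The normalized read count of *Cxcl12* lay at percentile 99.8 of the genes tested, and that of *Il34* at percentile 28.3. *Csf1* and *Kitl* overlapped over most of their range, and the lowest *Lepr* library lay above the highest *Angpt1* library. The genes varied to very different degrees. The highest library was 1.63 times the lowest for *Angpt1* and 1.66 times for *Cxcl12*, against 6.04 times for *Il7* and 11.8 times for *Il6*.

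**Figure D1:**
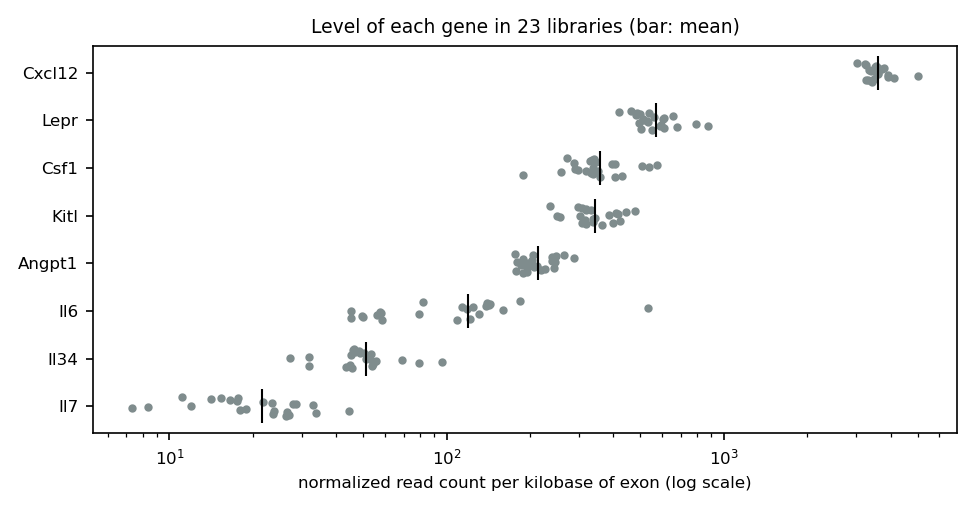
Normalized read count per kilobase of exon (log scale) of each gene in 23 libraries, 1 point per library, with the mean as a bar. *Cxcl12* lies above all other genes in every library, with a mean of 3586, and *Il7* is lowest at a mean of 21.6.

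**Figure D2:**
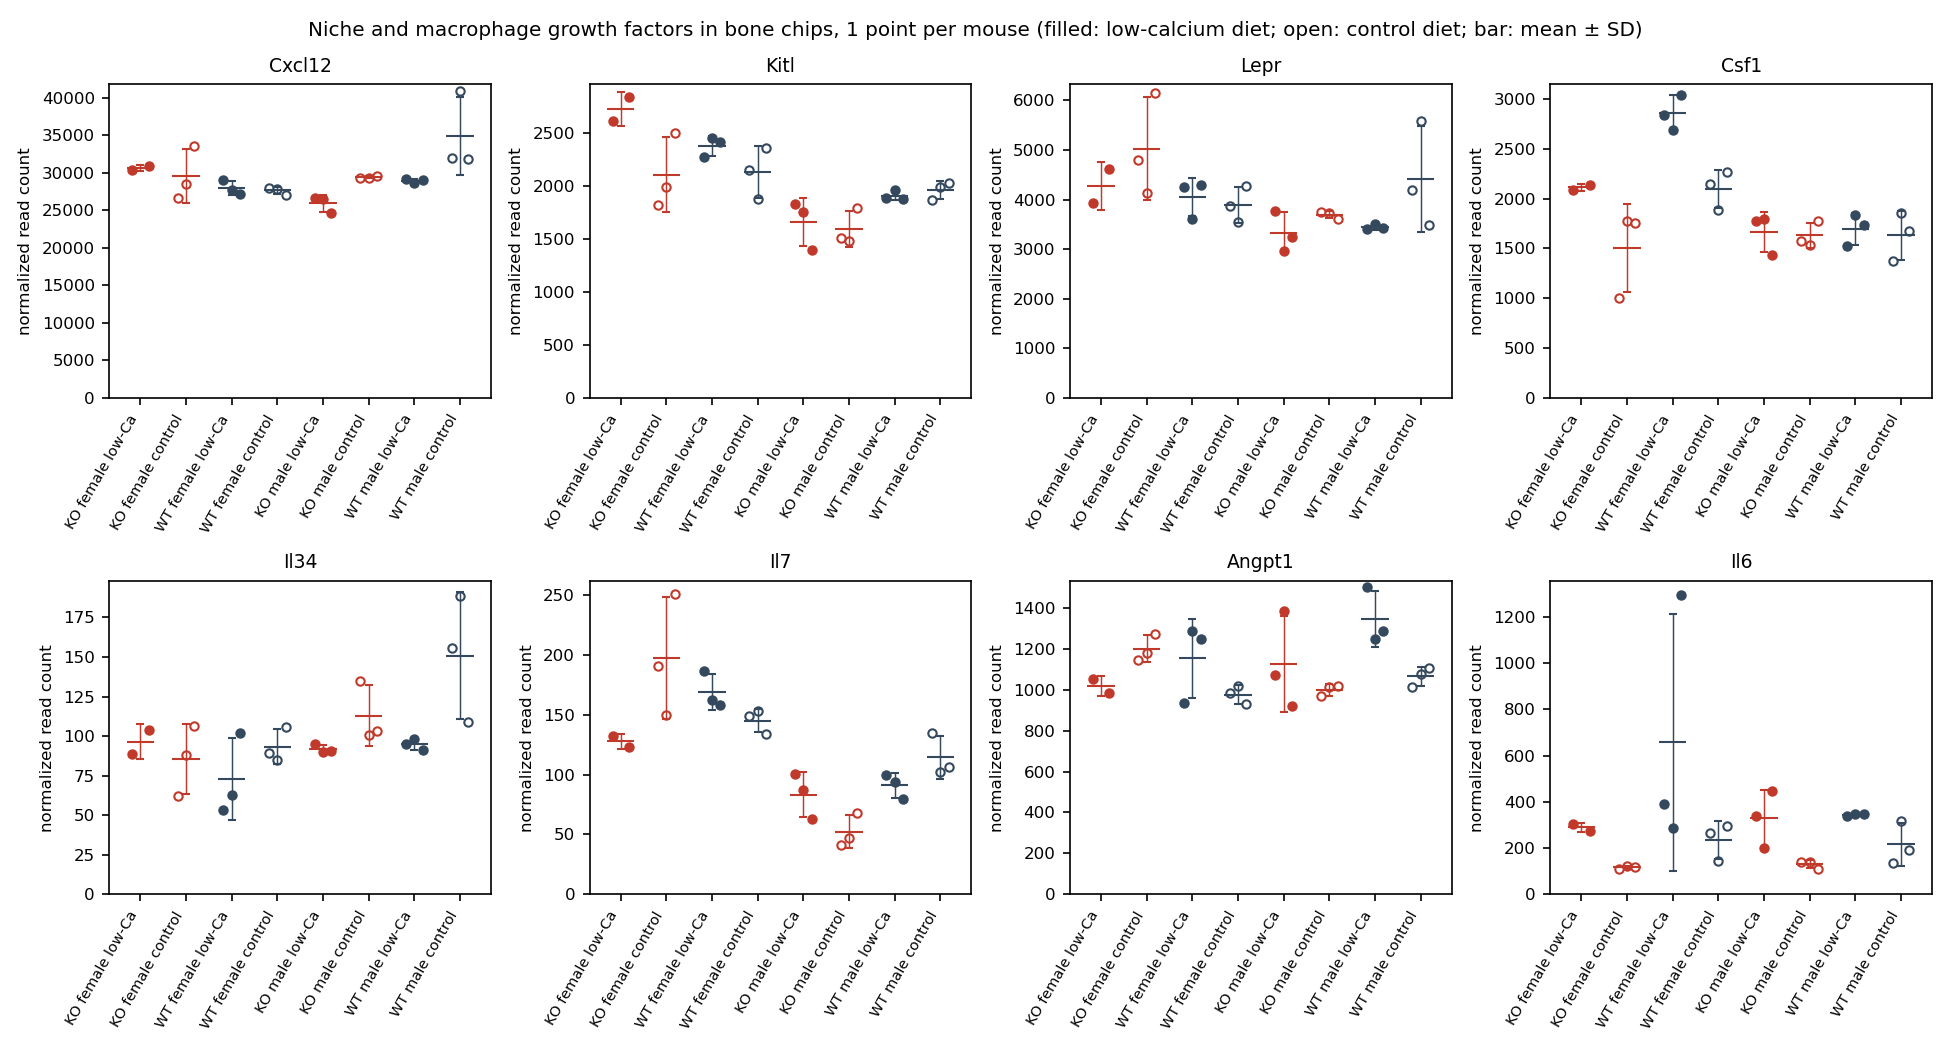
Normalized read count of each gene in each mouse by group, with filled points for the low-calcium diet, open points for the control diet, and the mean and SD of the group (n = 2 in KO females on the low-calcium diet, n = 3 elsewhere). *Il6* is higher on the low-calcium diet in each pair of means, and *Il7* is highest in KO females and lowest in KO males on the control diet.

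In *Cxcl12*, WT males on the control diet stood highest and KO males on the low-calcium diet lowest, each without overlap with the next group. In *Kitl*, KO females on the low-calcium diet were highest without overlap with the next group, and in *Csf1* the same held for WT females on the low-calcium diet. In *Il34*, *Il6* and *Angpt1* every group overlapped its neighbours in the order of means, and in *Lepr* only KO males on the control diet and WT males on the low-calcium diet, next to each other in that order, did not overlap.

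The first comparison asks how a diet short of calcium, which draws mineral from bone, alters these factors. *Il6* and *Csf1* rose on the low-calcium diet when the 4 strata of sex and genotype were averaged, and no member passed the test in the other direction. *Il6* was 2.20-fold higher (95% confidence interval 1.63 to 2.97) and *Csf1* 1.20-fold higher (95% confidence interval 1.07 to 1.36). These 2 calls among 8 genes stand beside 31.4% of all genes called in the same average, 16% higher and 15.4% lower, so the share called is close to that of the table as a whole. Of the members that missed the threshold in the average, 3 had an unadjusted p under 0.05, *Kitl* at 0.14 ± 0.06 (adjusted p = 0.0702), *Il34* at -0.28 ± 0.12 (adjusted p = 0.0859) and *Lepr* at -0.16 ± 0.07 (adjusted p = 0.101). The median log2 difference was 0.06 for the 8 genes and -0.01 for all genes tested.

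The mean of *Il6* was higher on the low-calcium diet in all 4 strata. In KO females it measured 303 and 275 on the low-calcium diet, against 110, 122 and 120 on the control diet. In WT females it measured 389, 288 and 1295 on the low-calcium diet, against 266, 142 and 294 on the control diet. In KO males it measured 340, 199 and 445 on the low-calcium diet, against 141, 140 and 110 on the control diet. The groups did not overlap in either KO stratum, and in WT females the difference was carried largely by mouse 18. WT males showed the smallest difference, with 338, 347 and 348 on the low-calcium diet, against 136, 317 and 193 on the control diet, and here too the groups did not overlap.

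The log2 difference of *Il6* was 1.30 ± 0.45 in KO females (SE, adjusted p = 0.0832), 1.23 ± 0.40 in WT females (adjusted p = 0.0438), 1.26 ± 0.40 in KO males (adjusted p = 0.0947) and 0.76 ± 0.40 in WT males (adjusted p = 0.294). WT females thus gave the 1 limma call among the 4 strata, beside 16.1% of all genes called there, and DESeq2 called 2 members in WT females. In KO females, WT males and KO males no member was called, beside 7.4%, 4.88% and 3.41% of all genes, and 4, 4 and 2 of the 8 members had an unadjusted p under 0.05 in those strata. DESeq2 called 1, 2 and 0 members there. Libraries of the diets did not overlap for 5 members in KO females, 2 in WT females, 3 in KO males and 5 in WT males, beside 43.6%, 29%, 22.7% and 32.5% of all genes. The average over the strata was 1.14 ± 0.21 (adjusted p = 3.80e-04), and it was called in each of 23 fits that left out 1 mouse, at 0.97 to 1.24. The call in WT females alone did not survive the removal of mouse 18, which left 0.58 (adjusted p = 0.294), of mouse 14, which left 0.91 (adjusted p = 0.206), of mouse 1, which left 1.36 (adjusted p = 0.0726), or of any of mice 5, 6, 8, 9, 10, 19, 25, 26, 27 or 28, which are in other groups (1.23, adjusted p between 0.0501 and 0.0541). Without mice 16 and 17 it stood at 2.53 (adjusted p = 4.66e-04), resting on mouse 18 alone. With mouse 18 left out, both KO strata were called, KO females at 1.30 (adjusted p = 0.0175) and KO males at 1.26 (adjusted p = 0.0160).

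The values of *Csf1* on the diets stood apart in females and overlapped in males. KO females had 2090 and 2137 on the low-calcium diet, against 999, 1776 and 1750 on the control diet. WT females had 2839, 2687 and 3043 on the low-calcium diet, against 2144, 1881 and 2263 on the control diet. Neither pair of groups overlapped, yet the log2 differences of 0.53 ± 0.18 (SE, adjusted p = 0.0736) in KO females and 0.45 ± 0.16 (adjusted p = 0.0620) in WT females missed the threshold in limma. In males the difference was 0.03 ± 0.16 in KO mice and 0.06 ± 0.16 in WT mice. The average over the 4 strata was 0.27 ± 0.08 (adjusted p = 0.0184). The diet effect of females minus that of males was 0.51 ± 0.24 in KO mice (95% confidence interval 0.00 to 1.01, adjusted p = 0.365) and 0.39 ± 0.23 in WT mice (adjusted p = 0.446), so a difference between the sexes was not shown.

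*Il6* and *Csf1* were the members called higher on the low-calcium diet in the average over strata, and their promoters are shown for that reason. They are from RefSeq on build GRCm38.p6, 250 bases before and 50 bases after the start of the gene. *Il6* lies on chr5:30013114-30019981 on the plus strand, with its promoter at chr5:30012864-30013163. *Csf1* lies on chr3:107741048-107760469 on the minus strand, with its promoter at chr3:107760420-107760719. Capitals mark matches on either strand to TATAAA (the TATA box), GGGCGG (the GC box), TGACG (a core of the cAMP response element), TGANTCA (AP-1) or TGTGGT (RUNX).
Il6: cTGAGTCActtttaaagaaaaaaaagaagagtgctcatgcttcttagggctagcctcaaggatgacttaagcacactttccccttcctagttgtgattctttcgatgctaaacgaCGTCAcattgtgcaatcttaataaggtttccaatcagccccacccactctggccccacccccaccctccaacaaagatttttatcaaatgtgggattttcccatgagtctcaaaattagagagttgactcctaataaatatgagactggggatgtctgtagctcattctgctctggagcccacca
Csf1: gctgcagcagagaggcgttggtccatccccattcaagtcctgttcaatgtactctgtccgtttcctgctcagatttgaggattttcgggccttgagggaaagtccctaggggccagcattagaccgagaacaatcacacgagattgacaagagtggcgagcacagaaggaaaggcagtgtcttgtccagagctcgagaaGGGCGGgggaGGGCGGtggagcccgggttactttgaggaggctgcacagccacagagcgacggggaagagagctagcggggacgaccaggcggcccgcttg

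The letters held by the 2 windows were different. The *Il6* window held 1 match to TGANTCA, which is in 7.81% of the 32851 promoters of the table, and 1 match to TGACG, which is in 20.8%. The *Csf1* window held 2 matches to GGGCGG, which is in 35.7%. Neither held TATAAA (in 13.6%) or TGTGGT (in 16.8%), and the matches did not overlap one another. RefSeq promoters were matched for 5 of the 8 genes.

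Of the other genes, none passed the test of diet in any stratum or in the average. *Kitl* had 2614 and 2837 in KO females on the low-calcium diet, against 1820, 1994 and 2504 on the control diet (log2 difference 0.38 ± 0.13, adjusted p = 0.0654). *Cxcl12* in WT males measured 29107, 28611 and 28993 on the low-calcium diet, against 32007, 40940 and 31883 on the control diet (-0.26 ± 0.09, adjusted p = 0.0972). *Il34* in the same mice measured 95.2, 98.5 and 91.2 on the low-calcium diet, against 156, 188 and 109 on the control diet (-0.63 ± 0.23, adjusted p = 0.123). In each of these 3 the libraries of the groups did not overlap. DESeq2 on the recovered reads called all 3, *Kitl* at adjusted p = 0.0431, *Cxcl12* at 0.0308 and *Il34* at 0.0416, and edgeR called none of them. The high control values of *Cxcl12* and *Il34* in WT males came with the hepatocyte signal of mouse 24, and without that mouse the differences were -0.14 (adjusted p = 0.399) and -0.45 (adjusted p = 0.380).

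Markers of several cell types moved with diet beside *Il6* and *Csf1*, in an average that called 31.4% of all genes, 16% higher and 15.4% lower. All 8 osteoblast genes listed rose, with a summed normalized read count of 376395 to 1252343 in 11 low-calcium libraries and 107765 to 387012 in 12 control libraries. Of the osteoclast genes 6 of 9 rose, with sums of 31984 to 66359 in low-calcium libraries and 25176 to 41162 in control libraries. Of the endothelial genes 7 of 10 rose, with sums of 9508 to 26259 in low-calcium libraries and 10054 to 17120 in control libraries. In females the endothelial sums were 14222 to 26259 on the low-calcium diet and 10747 to 17120 on the control diet. In males they were 9508 to 12009 and 10054 to 12122. Of the neutrophil genes 7 of 11 fell, with sums of 277912 to 555219 in low-calcium libraries and 300104 to 707797 in control libraries. All 15 hepatocyte genes fell in the average over strata, with sums of 5.61 to 322 in low-calcium libraries and 45.4 to 25918 in control libraries. The control sums of WT males were 2050 to 25918. In WT females the order was the other way, with 221, 322 and 145 on the low-calcium diet, against 92.2, 72.6 and 77.2 on the control diet. The sums were lower on the low-calcium diet in the other strata. With the means of the neutrophil and erythroid lists as covariates *Il6* stayed called (1.00, adjusted p = 0.00403) and *Csf1* did not (0.12, adjusted p = 0.536), *Lepr* was newly called (-0.29, adjusted p = 0.0372), and *Il6* in WT females alone stood at 0.30 (adjusted p = 0.750). Once the hepatocyte and muscle lists were the covariates, *Il6* stood at 1.85 (adjusted p = 3.82e-04) and *Csf1* at 0.49 (adjusted p = 0.0843). The part of the osteoblast, osteoclast and endothelial signal in these results was not tested.

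**Figure D3:**
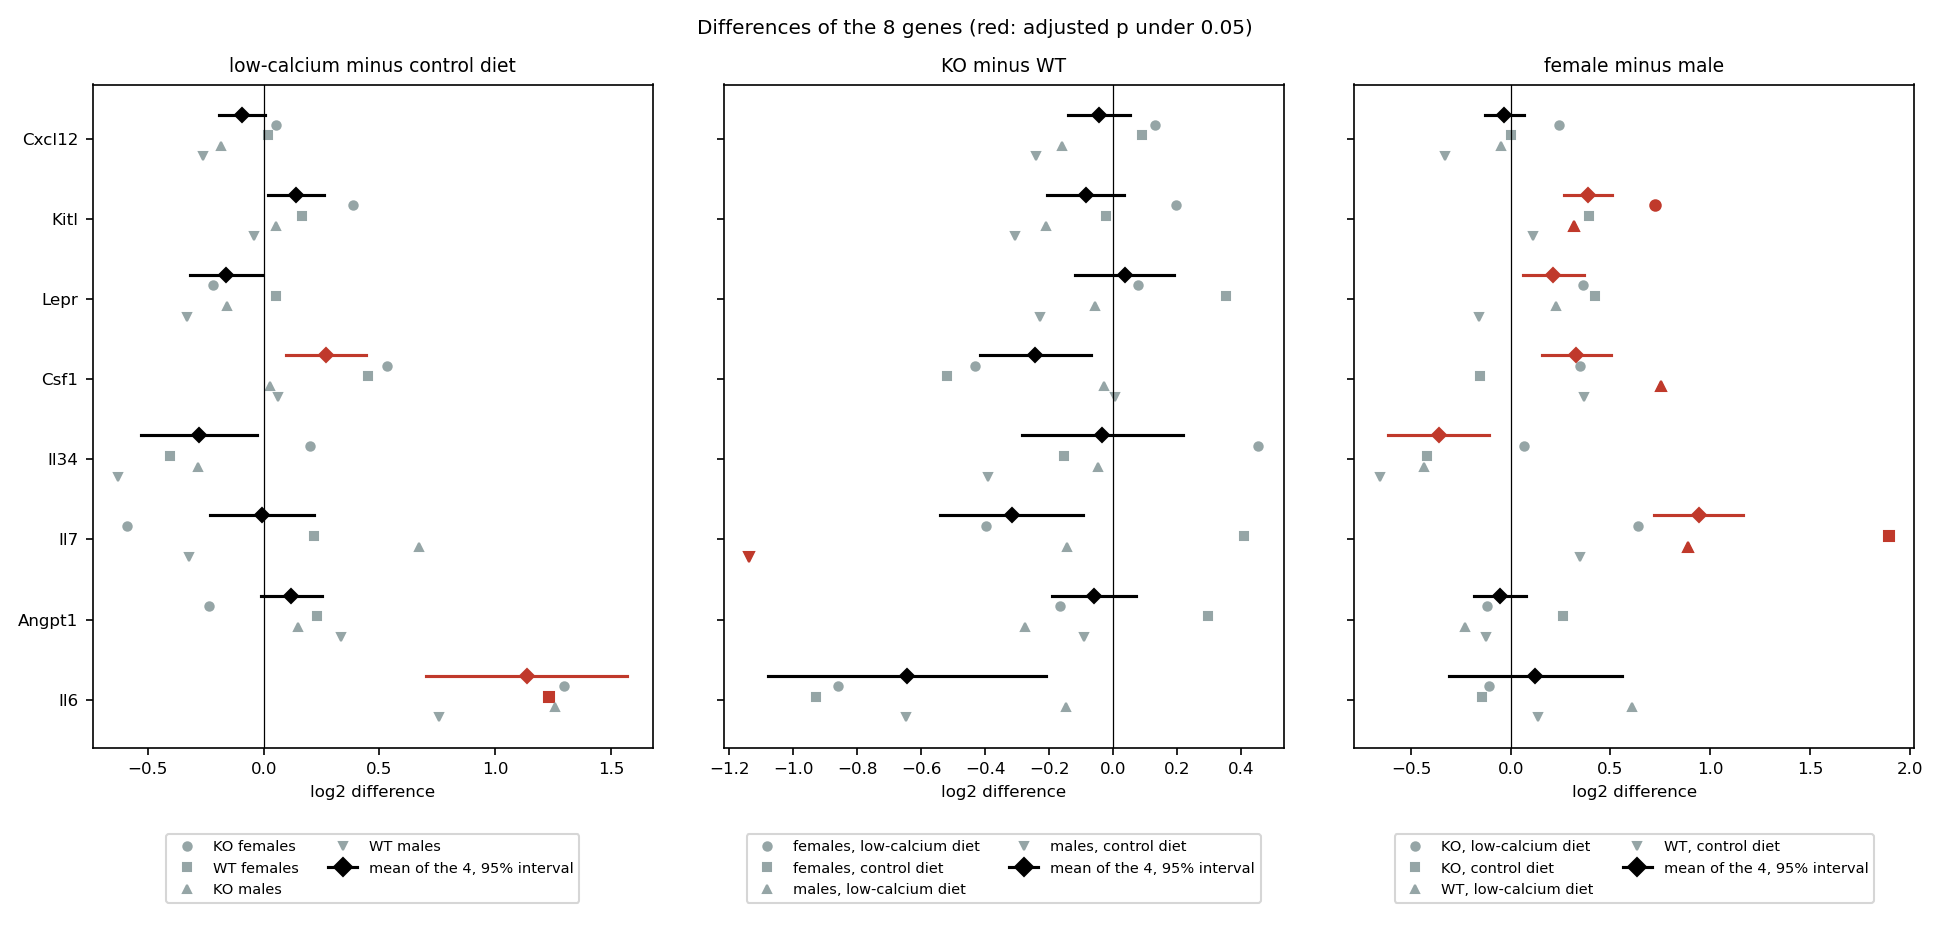
Log2 difference of each gene for the low-calcium diet minus the control diet, KO minus WT, and female minus male, in each of 4 strata (small symbols) and as their average with its 95% confidence interval (diamonds), with adjusted p under 0.05 in red. *Il6* and *Csf1* pass in the diet average, *Il7* passes between KO and WT males on the control diet only, and 5 genes pass in the average over sex.

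The second comparison asks what the loss of FNDC5 does to these factors. *Il7* fell in KO males on the control diet, and no other member passed the test in any of the 4 strata. *Il7* measured 41.6, 47.3 and 67.9 in KO males and 135, 102 and 107 in WT males on that diet, and the groups did not overlap. The log2 difference was -1.14 ± 0.21 (SE, adjusted p = 0.0103), or 0.455-fold (95% confidence interval 0.337 to 0.614). This is 1 of 8 members, beside 0.460% of all genes called in that comparison. The recovered reads behind *Il7* ran from 41 to 291 per library, and the variance between mice of a group was about 2.02 times that of counting alone, so counting error is a large share of its spread.

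The call of *Il7* between KO and WT males on the control diet did not survive the removal of WT mouse 7, which left -1.01 (adjusted p = 0.0759), KO mouse 10, which left -0.99 (adjusted p = 0.0819), or KO mouse 27, which left -1.08 (adjusted p = 0.0639). It was also lost when only these groups were fitted (adjusted p = 0.117). Hepatocyte and muscle covariates took it to -2.22 (adjusted p = 0.242). The hepatocyte sum was 76.0 to 99.1 in these KO males and 2050 to 25918 in the WT males, and without mouse 24 *Il7* stood at -1.22 (adjusted p = 0.0430).

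On the low-calcium diet, *Il7* measured 100, 86.8 and 63.1 in KO males and 99.6, 93.6 and 79.9 in WT males, with overlapping groups (-0.14 ± 0.21, adjusted p = 1.00). In KO females on the control diet it measured 191, 150 and 251, against 149, 153 and 134 in WT females (0.41 ± 0.21, adjusted p = 0.539). In KO females on the low-calcium diet it measured 133 and 123, against 187, 162 and 158 in WT females, without overlap (-0.40 ± 0.23, adjusted p = 0.346). The sign of the difference between KO and WT mice was thus positive in females on the control diet and negative in the other strata. In those 3 strata no member was called, beside 0.00639% of all genes in males on the low-calcium diet, 0 genes in females on the control diet and 1.24% in females on the low-calcium diet, and 1, 4 and 1 of the 8 members had an unadjusted p under 0.05. Neither edgeR nor DESeq2 called a member in those strata. Libraries of KO and WT mice did not overlap for 3 members in males on the control diet, 2 in males on the low-calcium diet, 3 in females on the control diet and 4 in females on the low-calcium diet, beside 13%, 9.45%, 17.3% and 32.6% of all genes.

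Averaged over the 4 strata, no member was called between KO and WT mice, beside 0.0576% of all genes. The 3 members with an unadjusted p under 0.05 in that limma fit all had lower values in KO mice, *Csf1* at -0.24 ± 0.08, *Il7* at -0.32 ± 0.11 and *Il6* at -0.65 ± 0.21 (adjusted p = 0.380, 0.380 and 0.375). edgeR and DESeq2 also called none of the 8. *Csf1* had lower values in KO than in WT females, without overlap on either diet. It measured 2090 and 2137 in KO females, against 2839, 2687 and 3043 in WT females on the low-calcium diet (-0.43 ± 0.18, adjusted p = 0.180). On the control diet it measured 999, 1776 and 1750 in KO females, against 2144, 1881 and 2263 in WT females (-0.52 ± 0.16, adjusted p = 0.348). In males the *Csf1* groups overlapped on both diets, at -0.03 ± 0.16 on the low-calcium diet and 0.00 ± 0.16 on the control diet. *Cxcl12* and *Kitl* had lower values in KO than in WT males, also without overlap on either diet. On the low-calcium diet *Cxcl12* measured 26620, 26453 and 24642 in KO males, against 29107, 28611 and 28993 in WT males (-0.16 ± 0.09, adjusted p = 1.00). On the control diet it measured 29356, 29300 and 29512 in KO males, against 32007, 40940 and 31883 in WT males (-0.24 ± 0.09, adjusted p = 0.535). Mouse 24, with the hepatocyte signal, was the highest WT male, and without it the difference was -0.12 (adjusted p = 1.00). *Kitl* measured 1826, 1758 and 1399 in KO males, against 1884, 1958 and 1880 in WT males on the low-calcium diet (-0.21 ± 0.11, adjusted p = 1.00). On the control diet *Kitl* measured 1511, 1478 and 1792 in KO males, against 1870, 1989 and 2031 in WT males (-0.31 ± 0.11, adjusted p = 0.500). With *Il7*, these were the 3 members with an unadjusted p under 0.05 in males on the control diet. The *Il6* average turned on mouse 18. Without mice 16 and 17 the average was -0.97 (adjusted p = 0.00800), and without mouse 18 it was -0.48 (adjusted p = 0.387). With the hepatocyte and muscle covariates it was 0.03 (adjusted p = 1.00).

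The third comparison asks how the sexes differ. *Il7*, *Kitl*, *Csf1* and *Lepr* were higher in females than in males on average over genotype and diet, and *Il34* was lower. *Il7* was 1.92-fold higher (95% confidence interval 1.65 to 2.24), *Kitl* 1.31-fold (1.20 to 1.42), *Csf1* 1.26-fold (1.11 to 1.42) and *Lepr* 1.16-fold (1.04 to 1.29). *Il34* stood at 0.778-fold (0.654 to 0.927). *Il7* and *Kitl* kept this direction in each stratum, and the other genes did not. On the control diet *Csf1* was 0.897-fold in KO females against KO males, and *Lepr* 0.897-fold in WT females against WT males. *Il34* was 1.05-fold in KO females against KO males on the low-calcium diet. These 5 of 8 members stand beside 40.1% of all genes called in the same average, 20.1% higher and 20% lower in females. Libraries of females and males did not overlap for 4 members in WT mice on the low-calcium diet, 3 in WT mice on the control diet, 5 in KO mice on the low-calcium diet and 4 in KO mice on the control diet, beside 43.5%, 25.7%, 40.6% and 29.6% of all genes. The median log2 difference was 0.17 for the 8 genes and 0.00 for all genes tested.

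The widest single difference was that of *Il7* in KO mice on the control diet. Its 191, 150 and 251 in KO females compare with 41.6, 47.3 and 67.9 in KO males, a log2 difference of 1.90 ± 0.21 (SE, adjusted p = 4.06e-05). No other member was called there by limma, beside 3.91% of all genes, while edgeR called 2 members in that comparison and DESeq2 3. This call held in each of the 23 fits without 1 mouse, at 1.71 to 2.10, and under all 11 other alternatives. *Il7* was also higher in WT females than WT males on the low-calcium diet (0.89 ± 0.21, adjusted p = 0.00354). In KO mice on the low-calcium diet the difference was 0.64 ± 0.23 (adjusted p = 0.123), and in WT mice on the control diet 0.35 ± 0.21 (adjusted p = 0.399).

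*Kitl* was called on the low-calcium diet in both genotypes. It measured 2614 and 2837 in KO females, against 1826, 1758 and 1399 in KO males (0.72 ± 0.13, adjusted p = 0.00965), which was the 1 member called in that comparison beside 2.59% of all genes. It measured 2274, 2450 and 2413 in WT females, against 1884, 1958 and 1880 in WT males (0.32 ± 0.11, adjusted p = 0.0361). Neither pair overlapped. On the control diet *Kitl* measured 1820, 1994 and 2504 in KO females, against 1511, 1478 and 1792 in KO males (0.39 ± 0.11, adjusted p = 0.0515), again without overlap. The call in KO mice on the low-calcium diet was lost when 1 KO female was left, at 0.78 (adjusted p = 0.0595) without mouse 5 and 0.66 (adjusted p = 0.270) without mouse 6, and when only these groups were fitted (adjusted p = 0.132). The call in WT mice was lost without mouse 8, 9, 17, 18 or 26 (0.30 to 0.34, adjusted p between 0.0618 and 0.0899) and without mice 16 and 17 together (0.34, adjusted p = 0.122).

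*Csf1* was highest in WT females on the low-calcium diet. Its 2839, 2687 and 3043 there compare with 1523, 1832 and 1734 in WT males (0.75 ± 0.16, adjusted p = 0.00203), and the call held without each mouse in turn. Without mice 16 and 17 the difference was 0.85, resting on mouse 18 alone in that group of females. On the low-calcium diet the 3 members called between females and males of WT mice were *Kitl*, *Csf1* and *Il7*, beside 31.9% of all genes. Without mice 16 and 17 *Il7* missed the threshold there (0.80, adjusted p = 0.0512). On the control diet *Csf1* measured 2144, 1881 and 2263 in WT females, against 1370, 1856 and 1676 in WT males, without overlap (0.37 ± 0.16, adjusted p = 0.239).

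Of the members, none was called by limma between the sexes of WT mice on the control diet, beside 1.89% of all genes, and 3 had an unadjusted p under 0.05. DESeq2 called *Cxcl12* (adjusted p = 0.00899), and edgeR did not (adjusted p = 0.0608). *Cxcl12* measured 27991, 27858 and 27075 in WT females, against 32007, 40940 and 31883 in WT males (-0.33 ± 0.09, adjusted p = 0.0677), without overlap. The sexes did not keep this order elsewhere, since *Cxcl12* measured 30343 and 30863 in KO females, against 26620, 26453 and 24642 in KO males on the low-calcium diet (0.24 ± 0.10, adjusted p = 0.180). Without mouse 24 the difference in WT mice on the control diet was -0.21 (adjusted p = 0.227).

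*Lepr* and *Il34* were called by limma in the average alone. *Lepr* was widest apart in KO mice on the control diet, with 4796, 4134 and 6159 in KO females, against 3753, 3725 and 3616 in KO males (0.42 ± 0.14, adjusted p = 0.0896). Its average of 0.21 ± 0.07 (adjusted p = 0.0263) missed the threshold at 0.20 (adjusted p = 0.0505) without mouse 32, at 0.18 (adjusted p = 0.0507) without mouse 20 and at 0.19 (adjusted p = 0.0847) without mouse 6. *Il34* averaged -0.36 ± 0.12 (adjusted p = 0.0218) and lost its call at -0.33 (adjusted p = 0.0577) without mouse 5, at -0.23 (adjusted p = 0.128) without mice 16 and 17, and at -0.20 (adjusted p = 0.283) with the hepatocyte and muscle covariates. Only 22 to 194 reads per library lay behind *Il34*.

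Blood cell and fat cell markers moved with sex beside these genes, in an average that called 40.1% of all genes, 20.1% higher and 20% lower. All 11 neutrophil genes were lower in females, with sums of 277912 to 617057 in 11 female libraries and 442789 to 707797 in 12 male libraries. Of the 6 erythroid genes tested, 4 were lower in females, with sums of 66714 to 118443 in female libraries and 93795 to 162423 in male libraries. All 8 adipocyte genes were higher in females, with sums of 8725 to 21844 in female libraries and 4805 to 14844 in male libraries. All 10 endothelial genes were also higher in females, with sums of 10747 to 26259 in female libraries and 9508 to 12122 in male libraries. With the neutrophil and erythroid means as covariates, none of the 5 averages over sex was called. *Il7* then stood at 0.82 (adjusted p = 0.170), *Kitl* at 0.20 (adjusted p = 0.467), *Csf1* at 0.14 (adjusted p = 0.783), *Il34* at -0.65 (adjusted p = 0.344), and *Lepr* turned to -0.06 (adjusted p = 0.893). In WT mice on the low-calcium diet *Kitl* stood at 0.07 (adjusted p = 0.957), *Csf1* at 0.49 (adjusted p = 0.714) and *Il7* at 0.71 (adjusted p = 0.704), and in KO mice on that diet *Kitl* stood at 0.50 (adjusted p = 0.245). *Il7* in KO mice on the control diet kept its call in that fit (1.83, adjusted p = 7.25e-04). The part of the adipocyte and endothelial signal was not tested.

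Differences between effects were then tested directly. Of 4 tests of whether the diet effect differed between genotypes or sexes, none called a member, and 2, 1, 1 and 3 members had an unadjusted p under 0.05. In the table as a whole, 0.0128% of genes were called between KO and WT females, 0.173% between the sexes in WT mice, and 0 genes in the other 2 tests. *Il7* gave the largest of these values. Its diet effect in KO females minus that in KO males was -1.26 ± 0.31 (adjusted p = 0.150, or 0.0195 with DESeq2 and 0.114 with edgeR). *Il7* measured 133 and 123 in KO females on the low-calcium diet, against 191, 150 and 251 on the control diet. In KO males it measured 100, 86.8 and 63.1 on the low-calcium diet, against 41.6, 47.3 and 67.9 on the control diet. The values of the females did not overlap between diets, and those of the males did.

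A pair of tests added after the data had been seen compared the KO effect between the sexes on each diet. On the control diet *Il7* was called, with a KO effect of 0.41 in females and -1.14 in males, a difference of 1.55 ± 0.29 (adjusted p = 0.0470), beside 0.0767% of all genes. Of 23 fits without 1 mouse 6 kept this call, and the difference ran from 1.36 to 1.75 over the 23. In the same test 4 other members had an unadjusted p under 0.05, *Lepr* at 0.58 ± 0.20 (adjusted p = 0.309), *Cxcl12* at 0.33 ± 0.13 (adjusted p = 0.367), *Angpt1* at 0.39 ± 0.17 (adjusted p = 0.429) and *Csf1* in the other direction at -0.52 ± 0.23 (adjusted p = 0.420). On the low-calcium diet no member was called, beside 0.00639% of all genes, and *Il7* stood at -0.25 ± 0.31. *Kitl* and *Cxcl12* had an unadjusted p under 0.05 on that diet, at 0.40 ± 0.17 (adjusted p = 0.312) and 0.29 ± 0.14 (adjusted p = 0.364).

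*Angpt1* was not called by limma in any of the 21 tests. It ran from 920 to 1501 over all libraries. Its highest group was WT males on the low-calcium diet, with 1501, 1249 and 1287, against 1014, 1076 and 1106 on the control diet (0.33 ± 0.12, adjusted p = 0.117), without overlap. In KO females the order of the diets was the other way, with 1054 and 985 on the low-calcium diet, against 1144, 1182 and 1274 on the control diet (-0.23 ± 0.14, adjusted p = 0.303), also without overlap. No group stood clear of its neighbours in the order of means.

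The genes whose levels followed each member most closely were sought among all genes tested, by Pearson's r of log2 values over the 23 libraries, which share groups, depth and cell makeup, so that r is a description. *Lepr* was followed by *Cxcl14*, encoding a chemokine (r = 0.91, and 0.93 with group means removed), and then by *A4galt* and *Ephx1* (r = 0.88 each). *Angpt1* was followed by *Mmrn1*, encoding multimerin of platelets (r = 0.90), *Itgb3*, encoding the platelet integrin subunit (r = 0.86), and *G6b*, a receptor of the megakaryocyte lineage (r = 0.85). The 7 listed megakaryocyte genes summed to 18381 to 47030 over the libraries. On average none was called between the diets, beside 31.4% of all genes, and 3 were lower in females, beside 20%. *Il6* was followed by *Bag3*, a co-chaperone, *Adamts4*, a protease, and *Peg10* (r = 0.92, 0.91 and 0.90).

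*Il7* was followed by *Tmem182*, *Rasgrf2* and *Adipoq*, which encodes the fat cell hormone adiponectin and is also expressed in marrow stroma (r = 0.92, 0.88 and 0.85). Once group means were removed, *Il7* and *Adipoq* had r = 0.24, while *Il7* and *Tmem182* had 0.71. *Csf1* was followed by *Samd4* and *Ctgf* (r = 0.91 and 0.89), and *Kitl* by *F8*, *Fabp4* and *Tbc1d4* (r = 0.86, 0.84 and 0.84). Near to *Cxcl12* were *Uroc1* and *C4bp* (r = 0.86 and 0.82), both genes of liver, whose markers stood apart in WT males on the control diet, and near to *Il34* were *Hc* and *Acta1* (r = 0.81 and 0.77). Leaving out the 2 libraries farthest from the median brought *Cxcl12* and *C4bp* to r = 0.64 and *Il34* and *Hc* to r = 0.61.

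**Figure D4:**
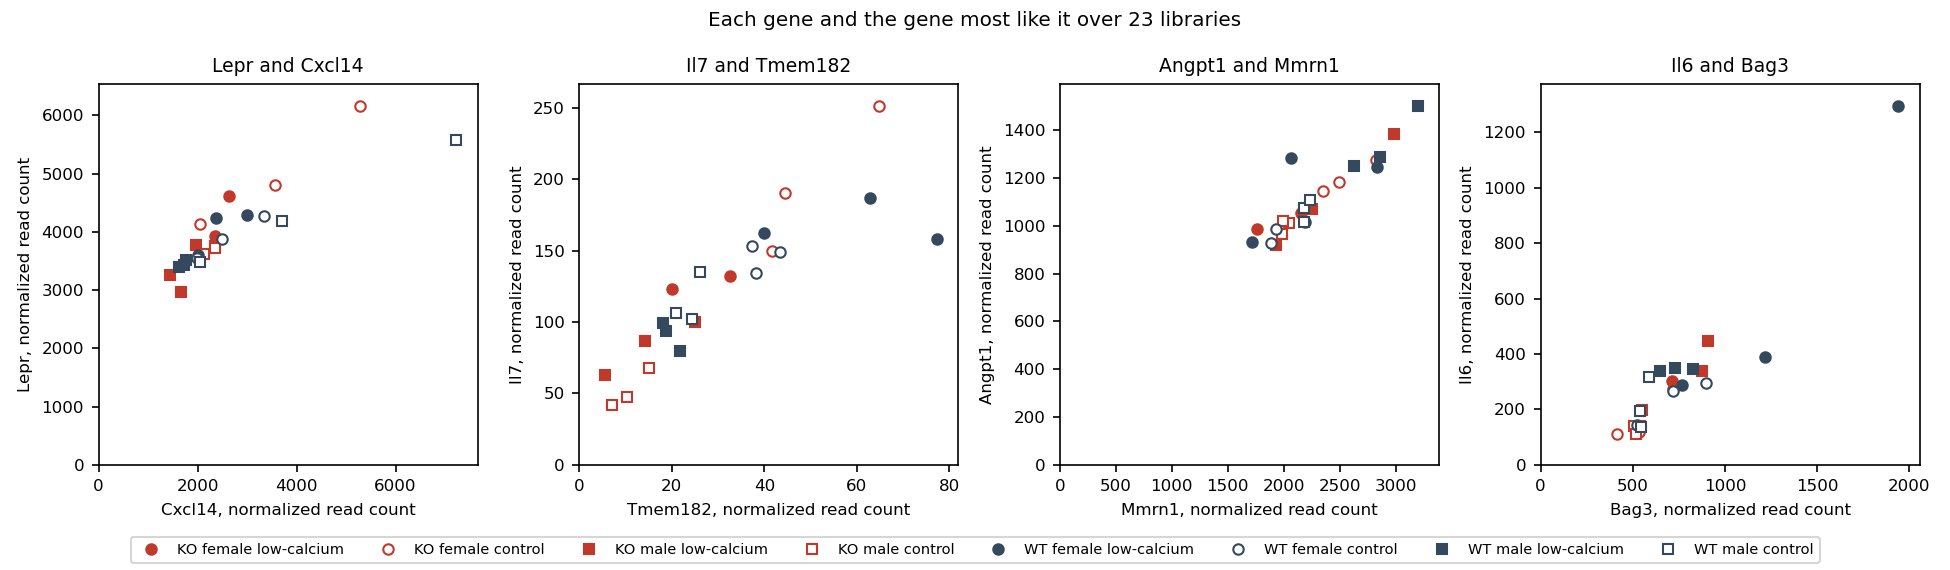
Normalized read counts of *Lepr*, *Il7*, *Angpt1* and *Il6* (vertical axes) against the gene most like each over 23 libraries (horizontal axes), with filled points for the low-calcium diet, open points for the control diet, circles for females and squares for males. *Lepr* and *Cxcl14* have r = 0.91, *Il7* and *Tmem182* r = 0.92, *Angpt1* and *Mmrn1* r = 0.90, and *Il6* and *Bag3* r = 0.92 on log2 values, and mouse 18 alone sets the upper end for *Il6*.

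Among themselves the 8 genes did not move as 1 block. The largest r over the 23 libraries was 0.73, between *Il7* and *Kitl*, followed by 0.65 between *Csf1* and *Kitl* and 0.63 between *Cxcl12* and *Il34*. With group means removed, *Cxcl12* and *Lepr* gave 0.71 and *Csf1* and *Kitl* 0.70. *Angpt1* had an r between -0.13 and 0.17 with every other member.

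Receptors and signalling partners of the 8 proteins were read from a list of 21 genes, of which 20 were tested. On the low-calcium diet 7 rose and 4 fell in the average over strata, beside 31.4% of all genes called, 16% higher and 15.4% lower. The median log2 difference was 0.00 for the list and -0.01 for all genes. *Csf1r*, the receptor of CSF1 and IL-34, rose by 0.25 ± 0.08 (SE, adjusted p = 0.0174). *Sdc1*, encoding syndecan-1, rose by 0.57 ± 0.09 (adjusted p = 7.73e-05) and *Angpt2*, encoding the second ligand of TIE2, by 0.50 ± 0.09 (adjusted p = 3.71e-04). *Jak2*, a kinase of cytokine receptors, rose by 0.21 ± 0.04 (adjusted p = 3.31e-04). *Il6ra*, the IL-6 receptor, fell by 0.22 ± 0.05 on the log2 scale (adjusted p = 9.99e-04), while *Socs3*, a target of STAT3, rose by 0.65 ± 0.15 (adjusted p = 0.00225) and *Il6st*, encoding gp130, stood at 0.04 ± 0.06 (adjusted p = 0.644). These averages cover uneven strata. *Socs3* ran from 0.93 in WT females to 0.13 in KO males, *Angpt2* from 1.07 to 0.14 and *Sdc1* from 0.74 to 0.14 in the same strata.

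Between females and males 11 of the 20 were higher and 3 lower, with a median of 0.23, beside 40.1% of all genes called, 20.1% higher and 20% lower. *Tek*, encoding TIE2, was higher in females by 0.63 ± 0.09 (adjusted p = 3.50e-05), *Ptprz1*, a receptor of IL-34, by 0.80 ± 0.11 (adjusted p = 4.11e-05), and *Angpt2* by 0.51 ± 0.09 (adjusted p = 2.56e-04). *Tek* is also on the list of endothelial genes, *Ptprz1* on that of osteocyte genes and *Csf1r* on that of macrophage genes. Their values here are the same measurements as there. *Cxcr4* was lower in females, at -0.31 ± 0.06 (adjusted p = 5.15e-04). *Kit* at -0.08 ± 0.04 (adjusted p = 0.144) and *Il7r* at 0.26 ± 0.14 (adjusted p = 0.136) did not pass, where their ligands *Kitl* and *Il7* did. None of the 20 was called between KO and WT mice in the average or in any stratum, with a median of -0.05 in the average. Beside this, 0.0576% of all genes were called in the average and at most 1.24% in a stratum.

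**Figure D5:**
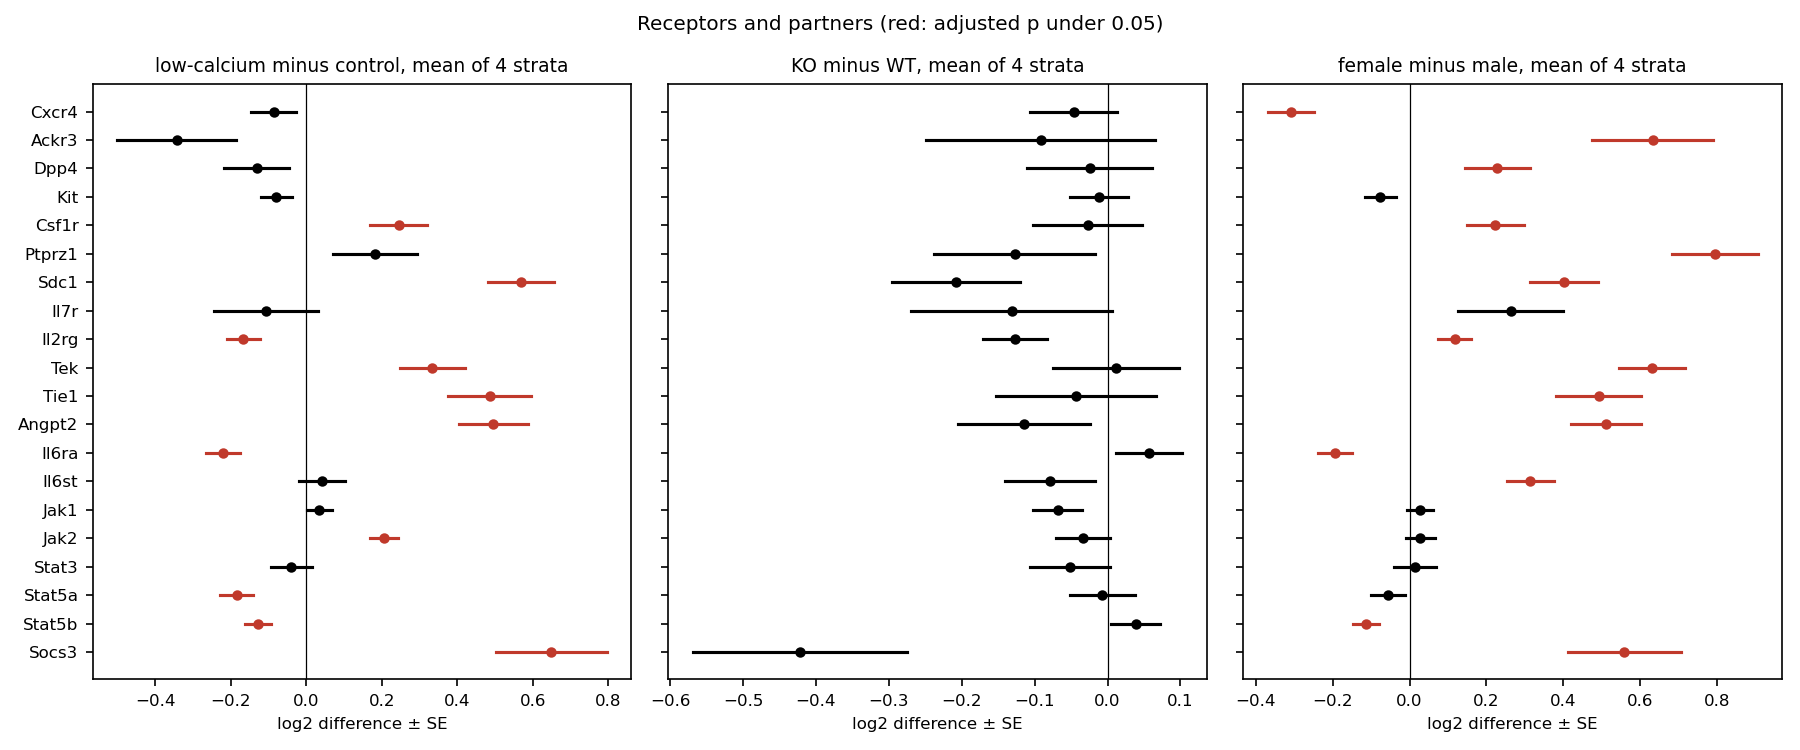
Log2 difference with its SE of 20 receptors and partners, averaged over 4 strata, for the low-calcium diet minus the control diet, KO minus WT, and female minus male, with adjusted p under 0.05 in red. Of the 20 genes, 11 pass for diet, none for genotype and 14 for sex, beside 31.4%, 0.0576% and 40.1% of all genes.

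Other cytokines of blood formation and markers of niche stroma gave a mixed picture. Of 16 cytokines tested, 1 rose and 6 fell on the low-calcium diet in the average, beside 31.4% of all genes called. *Csf3*, encoding G-CSF, rose by 2.40 ± 0.44 (adjusted p = 3.94e-04), with 1.20 to 235 normalized reads over all libraries. *Il1b* was at -0.76 ± 0.11 (adjusted p = 4.30e-05), *Flt3l* at -0.44 ± 0.12 (adjusted p = 0.00749) and *Clcf1* at -0.38 ± 0.11 (adjusted p = 0.0135). In females 2 were higher than in males and 3 lower, beside 40.1% of all genes called. *Tnfsf13b*, encoding the B cell factor BAFF, stood at -0.54 ± 0.09 (adjusted p = 1.41e-04) and *Clcf1* at 0.56 ± 0.11 (adjusted p = 5.82e-04).

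Of 13 niche stroma markers, 4 rose and 2 fell with diet in the average over strata, beside 31.4% of all genes called. In females 7 were higher and none lower, beside 40.1%. *Pdgfra*, a receptor of stromal progenitors, rose by 0.48 ± 0.09 with diet (adjusted p = 6.86e-04) and was higher in females by 0.59 ± 0.09 (adjusted p = 1.20e-04). *Foxc1*, a transcription factor of niche cells, rose by 0.48 ± 0.11 with diet (adjusted p = 0.00249). *Pdgfrb* rose by 0.31 ± 0.08 in the average (adjusted p = 0.00861), over uneven strata. Its difference was 0.79 in WT females and -0.32 in KO males (limma adjusted p = 0.309). The means of KO males were 1465 on the low-calcium diet and 1825 on the control diet, without overlap. The 2 that fell were *Vcam1*, encoding an adhesion molecule of the niche, at -0.22 ± 0.06 (adjusted p = 0.0135) and *Thy1* at -0.32 ± 0.11 (adjusted p = 0.0297). *Adipoq*, which is also on the list of adipocyte genes, was higher in females by 1.30 ± 0.12 (adjusted p = 4.58e-07). The summed normalized read count of the list was 14990 to 24500 in female libraries and 13135 to 16806 in male libraries, beside the higher *Il7*, *Kitl*, *Csf1* and *Lepr* of females. No niche marker and no cytokine of these lists was called between KO and WT mice. Of all genes, 0.0576% were called in that average and at most 1.24% in a stratum.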

How the data were processed

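The authors deposited normalized read counts (signal) for 21402 genes in 23 libraries. Per the methods, reads were checked with FastQC 0.11.5, aligned to mm10 with STAR 2.7.10a, counted per gene with featureCounts of subread 2.0.3 (reversely stranded), and the counts divided by DESeq2 size factors. The sources used here do not name the annotation. Dividing by the step of each library gave whole reads (100% within 0.01 reads).

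After adding a pseudocount of 1, log2 values of 15638 genes were modelled by limma 3.58.1 (R 4.3.3; lmFit, eBayes with trend) as 8 group means. P-values are two-sided and adjusted by Benjamini-Hochberg over all genes, and under 0.05 was a call. Log2 differences understate changes of low genes. There were 12 comparisons of groups, 3 averages over 4 strata, and 6 differences between effects, 2 of them added later. Mice are the replicates. Overlap refers to the ranges of single libraries. Positions and exon lengths came from GENCODE vM21 (GRCm38).

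The named genes were all 8 members, up to 4 called genes of each other list per comparison and the 3 most like genes, with *Csf1r*, *Il6st*, *Socs3*, *Kit*, *Il7r*, *Vcam1* and *Thy1* chosen after their values were seen. Some of the most like genes are not reported here. The members and lists were chosen with earlier results of these data known. Alternatives used edgeR 4.0.16, DESeq2 1.42.0, another pseudocount, no filter, quantile normalization, library weights, covariates, fewer samples and each mouse left out. The analysis was tested on simulated data.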

Additional observations from a re-analysis of the deposited data

Results flagged for a closer look

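*Il7* differed between the sexes in the effect of genotype on the control diet. KO minus WT was 0.41 in females and -1.14 in males, and the difference between these was 1.55 on the log2 scale (SE 0.29, adjusted p = 0.0470). The test was added after the data had been seen. DESeq2 gave an adjusted p of 7.41e-04 and edgeR 0.0687. In fits that left out 1 mouse the difference ran from 1.36 to 1.75 with an adjusted p between 0.0241 and 0.138, and 6 of 23 such fits kept the call. All 3 KO males lay below, and 2 of 3 KO females above, every WT mouse of their own sex on that diet.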

How the results depend on the processing

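Over the single comparisons of diet, limma called 1 pair of member and comparison, against 0 with no filter on low values, 5 with DESeq2, 2 with DESeq2 at the study's own thresholds, 14 with library quality weights, 3 with neutrophil and erythroid covariates, 3 with hepatocyte and muscle covariates, 3 with only the groups compared and 3 without mice 16 and 17. Leaving out each mouse in turn gave 0 to 4. For KO against WT the 1 call became 3 with quality weights, 0 with only the groups compared, 2 without mice 16 and 17, and 0 to 1 without each mouse. For sex the 5 calls became 8 with DESeq2, 1 at the study's thresholds, 12 with quality weights and 1 with neutrophil and erythroid covariates. The averages gave 7 calls, against 1 at the study's thresholds and 2 with neutrophil and erythroid covariates, of which *Il6* between diets was among the 7 and *Lepr* between diets (-0.29, adjusted p = 0.0372) was not. Among the planned differences between effects, 0 calls became 1 with DESeq2, 2 at the study's thresholds, 2 with quality weights and 1 without mice 16 and 17. The quality weights ran from 0.272 to 10.3, the highest for WT female mouse 1 on the control diet. Directions turned with hepatocyte and muscle covariates for *Cxcl12* (0.23) and *Il34* (0.73) between diets in WT males and for *Cxcl12* (0.080) between the sexes in WT mice on the control diet, and with neutrophil and erythroid covariates for *Lepr* between the sexes on average (-0.060). The cause was not tested. Both pairs of covariates differ between the groups themselves, which limits what those fits can separate. Of the 15 called pairs followed through all settings, 8 were called in each of the 23 fits without 1 mouse. No paired analysis was possible because the mouse numbers are not shared between groups. Depth limits *Il34* and *Il7* most, with as few as 22 and 41 reads in a library. *Il6* had as few as 101 reads, but its variance between mice of a group was about 17.1 times that of counting alone. With 2 or 3 mice per group, a difference that missed the threshold is not shown to be absent.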
